A study of Manis javanica with 3 samples.

Results

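Genes of cytochrome P450 enzymes were sought in the transcriptome of the Malayan pangolin (Manis javanica) through the annotation that the authors gave to each gene. A gene was taken as a P450 gene when its symbol was CYP followed by a digit, or when its entry in the NR protein database named a cytochrome P450 and not a reductase, and 78 genes met this rule. Of these, 76 were found among the 24220 genes with expression values and are described here, while CYP20A1 (gene18910) and CYP2C21 (gene20280) were not analysed here. The rule used no expression value. The 76 genes carried 38 different symbols, and 17 of them were new genes, which the authors assembled from reads that fell outside the annotated genes. Since a symbol came from the best match in another species, several genes shared a symbol, and a name given here is that of the NR entry, with the symbol added where it differed.

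P450 enzymes are heme proteins that insert an oxygen atom into lipids, hormones, vitamins and foreign compounds. Most sit in the endoplasmic reticulum and receive electrons from NADPH-cytochrome P450 reductase, and those of mitochondria receive them through adrenodoxin. The families CYP1, CYP2 and CYP3 are best known for the clearance of foreign compounds, CYP4 for the oxidation of fatty acids, and the remaining families for the synthesis of bile acids, cholesterol and steroid hormones and for the turnover of vitamins A and D, with the liver as the main site of clearance and of bile acid synthesis.

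RNA of liver, salivary glands and small intestine was sequenced in the study to learn how an ant-eating mammal digests and uses its food. All 3 tissues came from 1 adult female, a wild animal that died during its rescue and was dissected at once, with 1 library per tissue, so that no value below has a replicate check and tissue cannot be told apart from library. A difference was therefore described by the ratio of TMM-scaled counts (counts divided by a library size corrected for composition) with a 95% interval for counting error only, and was called where the ratio reached 2 and the pair of libraries held at least 10 fragments. A count of 0 was set to 3 counts, which makes the ratio a lower bound. Levels are given as FPKM, the fragments on a gene relative to its length and to all mapped fragments of the library, and an FPKM above 1 was taken as expressed.

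Between 8318686 and 14568778 fragments were counted on genes in a library, and a count of 0 allowed a level of up to 0.206 to 0.361 CPM (counts scaled to a common library size). The labels were checked against marker genes. Genes taken as hepatocyte genes by symbol had a median FPKM of 103 in the liver library (14 genes, some with another NR entry). Fibrinogen beta chain was at 12822 there and at 0 in both other libraries. Of 9 salivary genes, 2 passed an FPKM of 1 in liver and 3 in each other library, so that this list does not separate the libraries by its count. AQP5 and prolactin-inducible protein were highest in the salivary gland library, at 94.3 and 28.0, but carbonic anhydrase 6 was at 0.142 there against 2.83 in the small intestine library, lactoperoxidase was at 0.175 against 0.182, and both BPIFA genes were at 0. The library labelled small intestine went against its label, mainly through its stomach genes. These 12 genes had a median FPKM of 457 there and reached 9427 for gastricsin. The 15 enterocyte genes had a median of 0 there, with sucrase-isomaltase at 0.0421. FABP2, FABP1 and lactase were at 0 in all 3 libraries, so these zeros do not set this library apart. Villin-1 (gene24763) was above an FPKM of 1 in every library, with no pair reaching 2-fold. A sodium/glucose cotransporter match (gene6542, symbol SLC5A1) was highest in the small intestine library, at 1.94 against 0.221 in salivary glands and 0.457 in liver. The name small intestine is kept below as the label of that library. The ratios between liver and salivary glands do not rest on that label, although the scaling was fitted on all 3 libraries together.

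The P450 genes were expressed at the highest level and in the largest number in the liver library. Their summed FPKM was 1692 in liver, 185.8 in salivary glands and 100.4 in small intestine. Their share of the counts was 0.254% in liver (95% Wilson interval 0.252 to 0.257%), 0.0663% in salivary glands (0.0646 to 0.0681%) and 0.02995% in small intestine (0.0289 to 0.0310%). The 3 intervals did not overlap, and the liver share was the highest. Because the tissues were sequenced whole, fewer cells of a type and less RNA per cell cannot be told apart.

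Of the 76 P450 genes, 44 were above an FPKM of 1 in the liver, against 57% of all genes there. The corresponding number was 21 in salivary glands, where 56.3% of all genes passed, and 15 in small intestine, where 59.4% passed. In liver the P450 genes thus passed at a share close to that of all genes, and in both other libraries at a lower one. In at least 1 library 51 passed (69.3% of all genes), and 25 of these 51 passed in liver alone, which is 49.0% against 7.48% for all genes that passed in any library. The liver held the highest FPKM for 38 of the 51, the salivary glands for 8 and the small intestine for 5, which is 74.5%, 15.7% and 9.80% against 42.1%, 26.5% and 31.5% of all genes that passed in any library. A further 9 were above 1 in all 3 libraries, 8 in liver and salivary glands, 2 in liver and small intestine, 1 in salivary glands and small intestine, and 3 each in the salivary glands alone and in the small intestine alone. At the other end, a count of 0 was found for 11 P450 genes in liver, 29 in salivary glands and 38 in small intestine, which is 14.5%, 38.2% and 50.0% of them against 20.7%, 22.7% and 20.6% of all genes, and 7 had no fragment in any library. The shares of all genes are not given for these 7, nor for the 9, 8, 2, 1, 3 and 3 above. Those counts are descriptive only.

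The make-up of the family differed between the libraries. CYP2 genes made up 53.2% of the P450 FPKM in liver, 55.4% in salivary glands and 54.4% in small intestine. Bile acid P450s held 29.9% in liver, 0.633% in salivary glands and 10.1% in small intestine. CYP4 genes held 33.5% in the salivary glands, 16.1% in the small intestine and 3.72% in the liver. CYP2 thus led in every library, followed by the bile acid group in liver and by CYP4 in both other libraries. The place of the bile acid group in liver was set by 1 gene, CYP27A1 (gene2961), without which its summed FPKM fell from 506 to 43.3, below CYP3 at 166 and CYP4 at 62.97. When counts replaced FPKM, which removes the weight that short gene models receive, the bile acid group led in liver with 50.6% of the P450 counts and CYP2 followed with 37.5%.

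**Figure D1:**
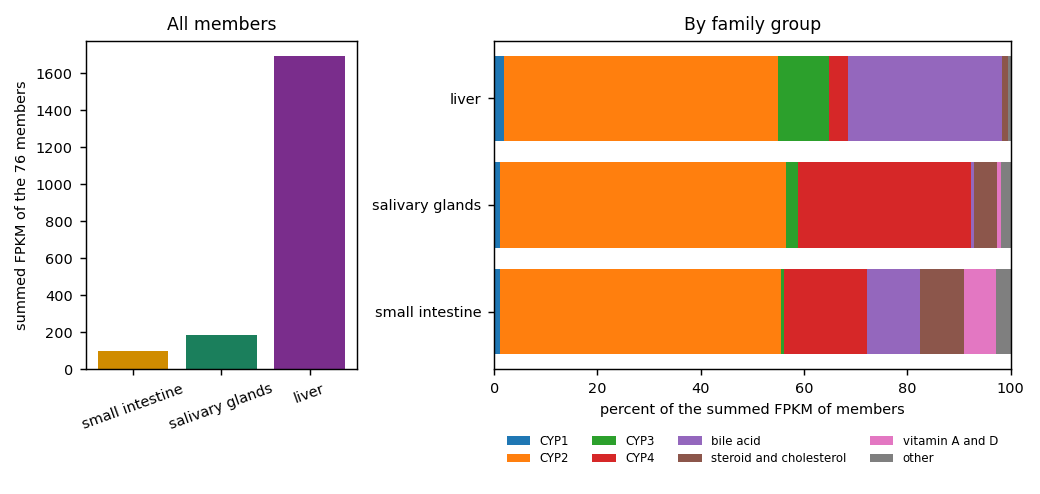
Summed FPKM of the 76 P450 genes in each library (left, bars from 0) and the percent of that sum held by each family group (right, 1 stacked bar per library). The left bars stand at 100.4, 185.8 and 1692, and on the right CYP2 takes 53.2 to 55.4% of each bar while the bile acid group is widest in liver and CYP4 in the salivary glands.

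The ratio of liver to small intestine was taken for the 56 P450 genes with at least 10 fragments in that pair. In liver 41 of them were at least 2-fold higher, against 23.7% of all genes tested, and 7 were at least 2-fold lower, against 24.5% of all genes. Their median log2 ratio was 2.55, with genes at 0 entered at their bound, and that of all genes was 0.06. Against the salivary glands, 39 of 55 tested P450 genes were at least 2-fold higher in liver (24.5% of all genes) and 6 were at least 2-fold lower (23.2%). The median log2 ratio was 2.15 for the P450 genes and 0.05 for all genes. The direction towards liver was thus the same against the salivary glands as against the library labelled small intestine. Between salivary glands and small intestine 28 P450 genes could be compared, of which 14 were at least 2-fold higher in the salivary glands (17% of all genes) and 6 at least 2-fold lower (20.5%), with a median log2 ratio of 0.91 against 0.01 for all genes. Both comparisons with liver share the liver library, so their counts are not independent of each other. A gene at 0 outside liver entered a pair only through its liver count and could not be called lower in liver, which tilts the calls towards liver.

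**Figure D2:**
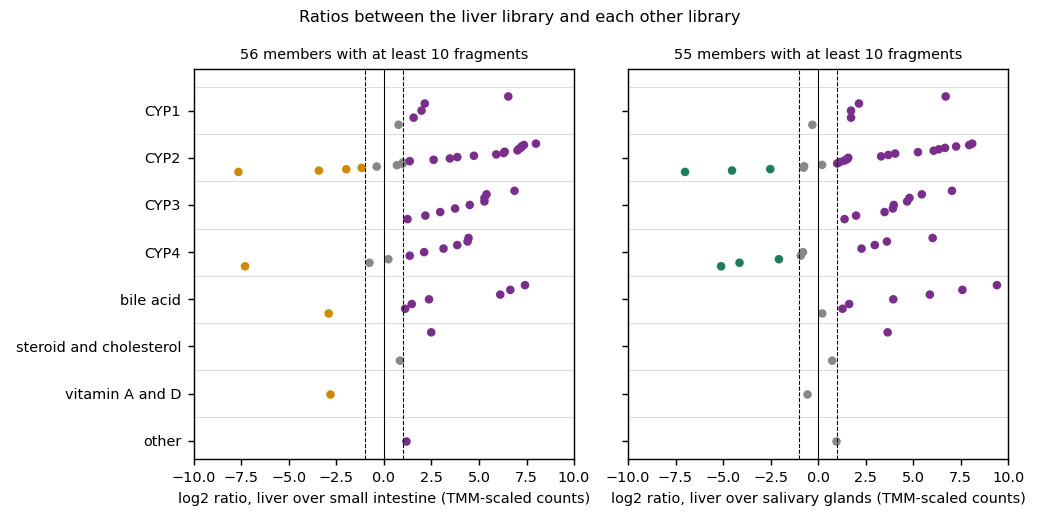
Log2 ratio of TMM-scaled counts of each P450 gene with at least 10 fragments in the pair, by family group, for liver over small intestine (left, 56 genes) and liver over salivary glands (right, 55 genes). Points right of the dashed line at 1 are called higher in liver (41 and 39), points left of the dashed line at -1 lower in liver (7 and 6), grey points neither, and genes with a count of 0 in 1 library are drawn at their bound.

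The bile acid group held the P450 gene with the highest level. CYP27A1, the mitochondrial sterol hydroxylase that opens the alternative pathway of bile acid synthesis, is gene2961 at NW_016528852.1:220838-260481. Its FPKM was 7.77 in the small intestine, 0.659 in the salivary glands and 463 in the liver, where it rested on 16337 fragments and ranked 148 among all genes. Liver stood far above both other libraries, by 69.4-fold over the small intestine (95% interval 58.8 to 82.6) and by 678-fold over the salivary glands (417 to 1187). This gene alone took 44.1% of the P450 counts of the liver. Without it the P450 share of the liver counts was 0.142%, a value 1 gene thus moved by over 1.5 times, and that share was still the highest of the 3 libraries.

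CYP7B1 (gene17719, symbol CYP7A1), the oxysterol hydroxylase that follows CYP27A1 in the alternative pathway, had an FPKM of 0.208, 0.423 and 30.2 in the small intestine, salivary glands and liver. CYP8B1 (gene9032), the sterol hydroxylase that directs synthesis to cholic acid, was at 0.0408, 8.81e-08 and 6.23, with 290 fragments in liver and a count of 1 in each other library. Both were higher in liver than elsewhere, where CYP7B1 ranked 2417 and CYP8B1 8016 among all genes of the liver library. The liver ratio of CYP7B1 was 100-fold over the small intestine (57.3 to 194) and 58.8-fold over the salivary glands (39.1 to 93.0). For CYP8B1 liver exceeded the small intestine by 171-fold (30.5 to 6790), an interval widened by a single fragment. Its count of 1 in the salivary glands was rounded up from a value near 0, and with 3 counts in place of that 0 liver was at least 64.0-fold higher.

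CYP7A1 (gene10683), the rate-limiting enzyme of the classic pathway of bile acid synthesis, was low in the liver library. Its FPKM was 0, 0 and 0.362, from 11 fragments in liver. Liver was therefore at least 2.17-fold higher than the small intestine and at least 2.44-fold higher than the salivary glands. The first call rests on rounding, since the unrounded liver count of 10 gives a bound of 1.97, below the threshold. The level was also below the threshold of expression and below those of CYP27A1, CYP7B1 and CYP8B1 on the same per-length scale. CYP39A1, which hydroxylates a further oxysterol, was matched by gene3291 (symbol CYP8B1) at 0.649, 0 and 4.61 and by gene22501 (symbol CYP7A1) at 0, 0 and 1.75. Both had their highest level in liver, and gene22501 overlapped 97 bases of SLC25A30 on the other strand, which reads without strand cannot separate. In all, 6 of the 7 tested genes of the group were at least 2-fold higher in liver than in either other library, or 5 of 7 against the small intestine with unrounded counts. Of all genes 23.7% were higher in liver than in the small intestine and 24.5% than in the salivary glands. Of these 6 bile acid genes, CYP7A1, CYP8B1 and both CYP39A1 matches had 8 fragments or fewer in each other library. They passed the filter only through their liver fragments, which largely sets this count. The seventh, gene217, matched CYP27B1 by its NR entry and is described with vitamin D. CYP46A1, the cholesterol hydroxylase known from brain, was matched by gene6858 (symbol CYP3A12), with 0, 1 and 2 fragments.

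CYP2 was the largest group, with 25 genes of which 20 were above an FPKM of 1 in at least 1 library. Against the small intestine, 14 of 22 tested genes were at least 2-fold higher in liver (23.7% of all genes) and 4 were lower (24.5%). Against the salivary glands 15 of 21 were higher (24.5%) and 3 lower (23.2%). The highest levels belonged to genes of the CYP2J, CYP2F and CYP2A subfamilies.

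CYP2J2, an epoxygenase of arachidonic acid, was matched by 4 genes with the symbol CYP2J1. Of these, gene26713 (NW_016605482.1:1125-3771) was at 0, 2.02 and 231 in the small intestine, salivary glands and liver, and gene26731 at 1.34, 0.496 and 147. The other two, newGene_12722 and newGene_13717, were at 26.9 and 5.23 in liver and at 0.345 or less elsewhere. All 4 had their highest level in liver. Liver exceeded the salivary glands by 102-fold for gene26713 (43.6 to 316), by 276-fold for gene26731 (76.1 to 2280) and by 81.3-fold for newGene_12722 (42.7 to 178). Their lengths were 411, 578, 3175 and 357 bases, so that 3 of the 4 gene models were under 1200 bases, too short for a whole P450 coding sequence, and whether they are parts of 1 gene was not tested.

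CYP2F5 (gene9520, symbol CYP2F3), of a subfamily known for the oxidation of naphthalene in lung, was at 1.67, 20.7 and 182. Liver was highest and the salivary glands stood between. The liver ratio was 147-fold over the small intestine (98.1 to 233) and 9.95-fold over the salivary glands (8.97 to 11.1), and the salivary glands exceeded the small intestine by 14.8-fold (9.73 to 23.6). The neighbouring gene9519, matched to CYP2F2 (symbol CYP2F5), was at 0.0385, 2.13 and 1.83, so that salivary glands and liver held it at levels within 2-fold of each other, while the ratio of salivary glands to small intestine was 45.4 (12.2 to 380) from 102 fragments against 2.

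CYP2A13, of a subfamily that oxidises coumarin and nicotine, was matched by 3 genes. The first, gene16566 (symbol CYP2A10, NW_016540657.1:1-14190), was at 117 in liver with a count of 0 in both other libraries, at least 136-fold higher than the small intestine and at least 153-fold higher than the salivary glands. The second, gene16567 (symbol CYP2A11), lay on the same scaffold and was at 0, 5.67 and 17.3. The third, gene9522 (symbol CYP2A11), was at 0.111, 13.1 and 24.5. Liver was again highest for all 3, but the levels of gene16567 and gene9522 in the salivary glands were above an FPKM of 1. Liver exceeded the salivary glands by 2.59-fold for gene16567 (2.08 to 3.25) and by 2.01-fold for gene9522 (1.66 to 2.44), a ratio at the threshold that fell below it under other scalings, with a log2 value of 0.79 by library size and 0.93 by upper quartile. The salivary glands exceeded the small intestine at least 30.2-fold for gene16567 and by 127-fold for gene9522 (22.5 to 5058), which had 1 fragment in the small intestine. The models of gene9522 and gene9520 overlap by 607 bases on opposite strands, and reads without strand cannot be assigned to either there.

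In the salivary glands CYP2F5 was at 11.4% of its liver FPKM. The 14 genes of the hepatocyte list summed to an FPKM of 49168 in liver, 176 in salivary glands and 136 in small intestine, with 12, 3 and 5 of them above an FPKM of 1. Genes entered this list by symbol. By NR entry gene165 (symbol ASGR1) was CD72, a B-cell antigen, at 0.858, 2.35 and 0.477 in small intestine, salivary glands and liver. It was thus 1 of the 3 above 1 in the salivary glands. By NR entry gene12691 and gene9267, with the same symbol, were C-type lectin members 10A and 4F. The list was also uneven in level. In the salivary glands 7 of its genes were at 0, among them fibrinogen beta chain, hepcidin and apolipoprotein B, while alpha-1-antitrypsin (SERPINA1, gene88) was at 120 against 586 in liver and gene10056, with the symbol of transthyretin, at 53.1 against 35.1. In the small intestine albumin (ALB, gene11696) was at 89.1 against 434 in liver. The part of liver RNA in the P450 levels of the other libraries was not tested. Across the 21 P450 genes with a liver FPKM above 10, the salivary gland level was 0 to 87.2% of the liver level with a median of 0.874%, and that of the small intestine was 0 to 55.2% with a median of 0.559%.

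The other CYP2 genes above an FPKM of 10 in liver were CYP2C26 (gene20572, symbol CYP2C5), CYP2D14 (gene26534, symbol CYP2D6), CYP2U1 (gene12645), CYP2B4 (gene16715, symbol CYP2B11) and a CYP2D gene (gene26430, symbol CYP2D17). The NR entry of gene26430 reads vitamin D(3) 25-hydroxylase-like, and CYP2D is the subfamily of its symbol. CYP2C and CYP2D enzymes metabolise many drugs. CYP2C26 was at 0.248, 0 and 44.4, and CYP2D14 at 0, 0 and 25.8. Both were high in liver, and of the other libraries the small intestine alone held fragments, 4 of CYP2C26. Liver exceeded the salivary glands at least 247-fold and at least 67.5-fold. The CYP2D gene of 582 bases was at 2.005, 1.05 and 19.2, highest in liver by 11.1-fold over the small intestine (5.48 to 26.1) and 16.6-fold over the salivary glands (7.45 to 45.97). Of the remaining CYP2D matches, gene18420 was at 0.407, 0 and 5.79 and overlapped a gene on the other strand by 5536 bases, newGene_11789 was at 0, 1.58 and 4.48 with 13 fragments or fewer, and newGene_9551 was below 1 in every library.

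CYP2U1, a fatty acid hydroxylase found in many tissues, was at 3.36, 6.55 and 22.6. It was expressed in every library, with the lowest level in the small intestine and the highest in liver. The salivary glands exceeded the small intestine by 2.04-fold (1.59 to 2.64), and liver exceeded the salivary glands by 3.0-fold (2.58 to 3.50). CYP2B4, of the subfamily known for its induction by phenobarbital, was at 11.7, 19.2 and 22.1. No pair of libraries reached 2-fold for it, since liver exceeded the small intestine by 1.99-fold (1.71 to 2.31) and the salivary glands by 1.16-fold (1.03 to 1.30). Under library size scaling the ratios of liver and of salivary glands to small intestine pass the threshold, with log2 values of 1.23 and 1.24.

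A smaller set of CYP2 genes was lower in liver than elsewhere. CYP2S1 (gene1977, symbol CYP2G1, NW_016528280.1:202914-212799), an enzyme known from epithelia outside the liver, was at 26.1, 14.6 and 0.106, with 713, 510 and 6 fragments. It held 23.4% of the P450 counts of the small intestine, the largest part of any gene there. Both other libraries stood far above liver, the small intestine by 201-fold (92.0 to 550) and the salivary glands by 128-fold (58.4 to 350), while these differed from each other by 1.57-fold (1.40 to 1.76), less than the threshold. The salivary level of CYP2S1 was 55.8% of its small intestine level. The 10 stomach genes detected in the small intestine were at 0.232% of their level there or less in the salivary glands, and the part of RNA carried between libraries in the level of CYP2S1 was not tested.

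CYP2W1 (gene6718, symbol CYP2C14, NW_016531357.1:449806-464878), another enzyme known mainly outside the liver, was at 5.05, 13.2 and 1.52. The salivary glands were highest and liver lowest. The salivary glands exceeded liver by 5.72-fold (4.99 to 6.57) and the small intestine by 2.54-fold (2.25 to 2.87), and the small intestine exceeded liver by 2.25-fold (1.92 to 2.65), a call that is lost under library size scaling with a log2 value of -0.93 for liver over small intestine. CYP2W1 was the P450 gene with the most fragments in the salivary glands, 18.3% of their P450 counts. Its model of 8799 bases overlaps gene6714 by 5968 bases and COX19 by 319 bases on the other strand, and those genes had 218 and 253 fragments in the salivary glands against 1010 for CYP2W1.

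CYP2B5 (gene16714, symbol CYP2B4) was at 0.197, 1.14 and 0.0562, and CYP2C18 (newGene_6612, symbol CYP2D6) at 1.17, 0.152 and 0. The first was highest in the salivary glands, by 23.1-fold over liver (7.42 to 116), and the second in the small intestine, at least 10.7-fold over liver, from 46 and 19 fragments. Both lie on scaffold NW_016540913.1 beside CYP2B4 and CYP2G1 (gene16713), the latter with 0, 0 and 4 fragments. These 4 P450 genes lie within 69304 bases. A match to CYP2K4 (gene9716, symbol CYP2C42) was below 1 in every library and had 30, 2 and 39 fragments. CYP2R1 (gene25153, symbol CYP2J1), which hydroxylates vitamin D in the liver, had 0, 0 and 2 fragments, and gene20009, a match to CYP2C27, had 1, 2 and 2. A vitamin D 25-hydroxylase is also named by the NR entry of gene26430, at 19.2 in liver.

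**Figure D3:**
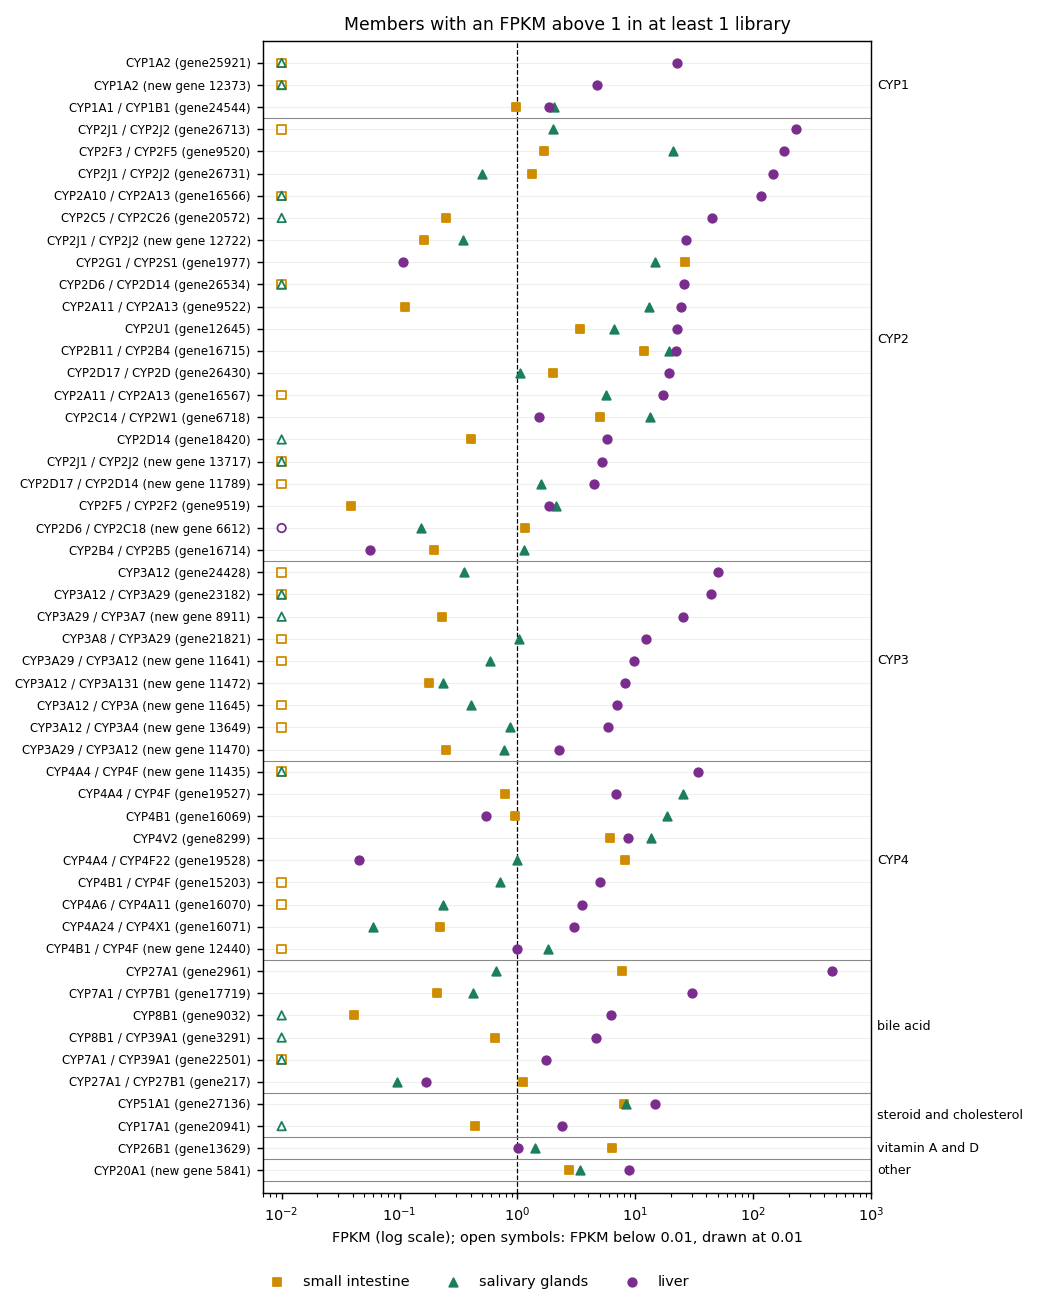
FPKM (log axis) of the 51 P450 genes above an FPKM of 1 in at least 1 library, by family group, with 1 symbol per library, names given as symbol / NR name where they differ, and open symbols for an FPKM below 0.01. The liver circles are rightmost for 38 of the 51 genes, and CYP2S1, CYP4F22 and CYP2C18 are among the exceptions with the small intestine square rightmost.

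Expression of CYP3 genes lay mainly in the liver library. CYP3A enzymes oxidise a broad range of drugs and steroids and are known from both liver and intestine. Of 13 genes with a CYP3A symbol, 9 could be compared. All 9 were at least 2-fold higher in liver than in the small intestine (23.7% of all genes) and than in the salivary glands (24.5%). The median log2 ratios were 4.51 and 3.98. None of the 9 had more than 7 fragments in the small intestine or more than 20 in the salivary glands. Against the small intestine all 9 thus passed the filter only through their liver fragments, which largely sets this count. Against the salivary glands this held for all but newGene_11472 and newGene_11470, with 11 and 20 fragments there. The summed FPKM of the group was 0.652 in the small intestine, 4.27 in the salivary glands and 166 in the liver. The highest were CYP3A12 (gene24428, NW_016563303.1:3789-5608) at 0, 0.353 and 50.4, a CYP3A29 match (gene23182) at 0, 0 and 43.9, and CYP3A7 (newGene_8911) at 0.229, 0 and 25.3. All 3 were high in liver and at 1 fragment or none elsewhere, so that liver was at least 38.99-fold, at least 22.8-fold and 117-fold (20.8 to 4643) above the small intestine.

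In the small intestine no CYP3A gene reached an FPKM of 1, and in the salivary glands 1 did, a CYP3A29 match (gene21821) at 1.03 from 4 fragments. Its liver FPKM was 12.3. The library labelled small intestine held stomach genes at a high level and enterocyte genes at a median FPKM of 0. The CYP3A levels of that library therefore cannot be taken as those of intestinal epithelium. The remaining 5 tested genes, all new, were at 2.27 to 9.75 in liver. Of these, newGene_11472 and newGene_11470 lie on opposite strands and overlap by 4741 bases, with 463 and 79 fragments in liver that reads without strand cannot separate. Of the genes not compared, gene20378 and gene25206 had 7 fragments and 1 fragment, in liver alone, newGene_12009 had none, and gene6858 is the CYP46A1 match given above. CYP3A genes were mostly short, 8 of the 13 models being under 1200 bases, and 7 were new genes, without which the summed FPKM of the group was 0, 1.43 and 107.

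CYP1 genes were detected mainly in liver. CYP1A2 (gene25921, NW_016585006.1:23781-27884), which oxidises caffeine and aromatic amines, was at 22.7 in liver with no fragment in the small intestine or salivary glands, at least 93.1-fold and at least 105-fold higher. A new gene on the same scaffold with the same name (newGene_12373) was at 4.69 in liver and also at 0 elsewhere. CYP1A1, the enzyme of polycyclic aromatic compounds induced through the aryl hydrocarbon receptor, was below an FPKM of 1 in every library, with gene25920 at 0.124, 0 and 0.835 and gene26707 at 0, 0 and 0.651. Each of these rested on 15 fragments in liver, and gene25920 overlapped a new gene on the other strand by 567 bases.

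CYP1B1 (gene24544, symbol CYP1A1), an oestrogen hydroxylase known from tissues outside the liver, differed from the other genes of its family. It was at 0.981, 2.05 and 1.85, with 42, 99 and 121 fragments. Salivary glands and liver were alike within 2-fold (ratio 1.23, 0.935 to 1.62, towards the salivary glands), and liver exceeded the small intestine by 1.70-fold (1.19 to 2.48), a ratio that passes the threshold under library size scaling with a log2 value of 1.006. The salivary glands exceeded the small intestine by 2.10-fold (1.45 to 3.08).

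CYP4 genes took a larger part of the P450 expression in the salivary glands than in either other library. Their summed FPKM was 16.2 in the small intestine, 62.3 in the salivary glands and 62.97 in the liver. Against the small intestine, 6 of 9 tested genes were at least 2-fold higher in liver (23.7% of all genes) and 1 was lower (24.5%). Against the salivary glands, 4 were higher in liver (24.5%) and 3 lower (23.2%), with a median log2 ratio of -0.80. Of the liver sum, 33.8 came from newGene_11435, a CYP4F match of 233 bases with 22 fragments in liver and none elsewhere.

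The CYP4 genes lower in liver than in the salivary glands were CYP4F, CYP4B1 and CYP4F22. The CYP4F gene (gene19527, symbol CYP4A4, NW_016545566.1:21632-39164), of a subfamily that inactivates leukotrienes, was at 0.777, 25.1 and 6.88. CYP4B1 (gene16069, NW_016539980.1:356866-380599), which oxidises fatty acids and plant furans and is known from lung, was at 0.955, 18.6 and 0.536. Both were highest in the salivary glands, with 823 and 411 fragments there. The salivary glands exceeded liver by 4.17-fold for CYP4F (3.65 to 4.78) and by 34.4-fold for CYP4B1 (21.5 to 58.6), and exceeded the small intestine by 36.6-fold (23.5 to 60.2) and 20.3-fold (12.7 to 34.6).

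CYP4F22 (gene19528, symbol CYP4A4, NW_016545566.1:49115-71471), the hydroxylase of ultra-long-chain fatty acids of the skin barrier, lies next to gene19527 on the same scaffold and had the reverse order of levels between salivary glands and small intestine. It was at 8.10, 0.993 and 0.0451, with 280, 35 and 3 fragments. The small intestine was highest, by 8.99-fold over the salivary glands (6.31 to 13.2) and by 158-fold over liver (53.5 to 771). CYP4V2 (gene8299), a fatty acid hydroxylase expressed in the eye and elsewhere, was at 6.11, 13.5 and 8.66 and was thus expressed in all 3 libraries. Only its ratio of salivary glands to small intestine reached the threshold, at 2.21 (1.87 to 2.63), although the salivary glands also pass 2-fold over liver under library size scaling, with a log2 value of -1.13 for liver over salivary glands.

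Other CYP4 genes had their highest level in liver or were barely detected. CYP4A11 (gene16070, symbol CYP4A6), an omega-hydroxylase of fatty acids, was at 0, 0.236 and 3.54, and a match to CYP4X1 (gene16071, symbol CYP4A24) at 0.218, 0.0598 and 3.04. They lie beside CYP4B1, within 95250 bases that hold these 3 genes, and they were higher in liver than in the salivary glands where CYP4B1 was lower, with liver 12.3-fold (5.47 to 34.2) and 65.1-fold (11.4 to 2597) above the salivary glands. A further CYP4F match (gene15203) was at 0, 0.710 and 5.02, and another (newGene_12440) at 0, 1.81 and 0.989 from 15 fragments or fewer. The remaining 6 CYP4 genes had 2 fragments or fewer in every library.

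Among the P450s of steroid and cholesterol synthesis, only CYP51A1 was expressed in all 3 libraries. CYP51A1 (gene27136, NW_016607921.1:20737-41170), the lanosterol demethylase that all cholesterol-making cells use, was at 8.07, 8.27 and 14.6. No pair of libraries reached 2-fold, liver exceeding the small intestine by 1.80-fold (1.53 to 2.12) and the salivary glands by 1.67-fold (1.44 to 1.95), though the first ratio has a log2 value of 1.08 under library size scaling. CYP17A1 (gene20941), a hydroxylase and lyase of steroid hormone synthesis, was at 0.438, 0 and 2.37. Liver was highest, 5.61-fold over the small intestine (2.43 to 15.9) and at least 12.6-fold over the salivary glands. The enzymes that start and end steroid synthesis were not detected, with CYP11A1 (gene2987, cholesterol side-chain cleavage), CYP11B1 (gene11654, cortisol synthesis) and CYP19A1 (gene25723, aromatase) at 0 in every library and CYP21 (gene6105) at 1 fragment in each. At these depths that allows each of the first 3 up to 0.206 to 0.361 CPM.

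CYP26B1 (gene13629, NW_016537214.1:804457-824067), which degrades retinoic acid, was highest in the small intestine. It was at 6.33, 1.40 and 1.001, with 405, 96 and 96 fragments. The small intestine exceeded liver by 7.14-fold (5.70 to 9.02) and the salivary glands by 4.74-fold (3.79 to 5.99), while salivary glands and liver differed by 1.51-fold (1.12 to 2.02). Matches to its relatives CYP26A1 (gene11922) and CYP26C1 (gene11923), which lie together on another scaffold, had no fragment in any library. CYP27B1 (gene217, symbol CYP27A1), which activates vitamin D, was at 1.12, 0.0948 and 0.167, highest in the small intestine by 7.50-fold over liver (3.24 to 20.2) and 8.71-fold over the salivary glands (3.08 to 34.0) from 31 fragments. CYP24A1 (gene2750, symbol CYP27A1), which inactivates vitamin D, had 7, 0 and 1 fragments. CYP20A1 (newGene_5841), a P450 without an assigned substrate, was at 2.75, 3.36 and 8.85. It was expressed in all 3 libraries and liver exceeded the small intestine by 2.24-fold (1.87 to 2.69) and the salivary glands by 1.92-fold (1.63 to 2.26), the latter below the threshold.

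The P450 genes higher in the small intestine library than in liver stood beside stomach markers in that library. Of the 12 genes of the stomach list, 8 were above an FPKM of 1 there, 4 in the salivary glands and 1 in liver, and their summed FPKM was 23752, 18.3 and 2.13. Of the 15 enterocyte genes, 3, 2 and 4 were above 1, and their sums were 28.1, 28.9 and 142. Of the liver sum, 114 came from gene10946, which had the symbol SI and a maltase-glucoamylase NR entry. Sucrase-isomaltase by NR entry (gene7608) was at 0 in liver. The part of either cell type in the levels of CYP2S1, CYP4F22, CYP26B1, CYP27B1, CYP2C18, CYP2W1 and CYP2B5 was not tested. Of these, CYP2W1 and CYP2B5 were highest in the salivary glands.

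Of the electron donors of P450 enzymes, taken by symbol, 8 of 10 genes were above an FPKM of 1 in liver and 7 in each other library. The corresponding shares of all genes were 57% in liver, 56.3% in salivary glands and 59.4% in small intestine. These counts include newGene_9806 (symbol FDX1), whose NR entry is a transposase, at 0.574, 0.683 and 1.30 in the small intestine, salivary glands and liver. Enough fragments for a ratio were found for 8 of them. In liver 3 were at least 2-fold higher than in the small intestine (23.7% of all genes). Against the salivary glands 2 were higher in liver (24.5% of all genes) and 1 lower (23.2%), the 2 being close to the share of all genes. NADPH-cytochrome P450 reductase (POR, gene5752), the donor to all P450s of the endoplasmic reticulum, was at 27.1, 70.4 and 91.9. Cytochrome b5 (CYB5A, gene10599), which speeds some P450 reactions, was at 10.5, 39.5 and 68.0, and its mitochondrial form (CYB5B, gene16393) at 16.0, 11.7 and 26.5. POR and CYB5A were highest in liver, by 3.95-fold and 6.16-fold over the small intestine but by 1.40-fold and 1.56-fold over the salivary glands. NADH-cytochrome b5 reductase (CYB5R3, gene23847) was instead highest in the salivary glands, at 65.1, 255 and 35.8. Adrenodoxin (FDX1, newGene_9805), the donor of the mitochondrial P450s, was at 2.80, 3.10 and 11.7, highest in liver.

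Receptors and transcription factors known to control P450 genes were mostly higher in liver or within 2-fold. Of 21 genes in this list, 9 of 19 tested were at least 2-fold higher in liver than in the small intestine (23.7% of all genes) and 4 lower (24.5%). Against the salivary glands 10 of 18 were higher in liver (24.5%) and 0 lower (23.2%). The 4 with the highest level were CEBPB (gene4307) at 40.4, 73.6 and 151, RXR-alpha (gene11187, symbol RXRG) at 18.4, 14.1 and 30.6, RXR-beta (gene790) at 13.5, 19.8 and 22.95, and HNF4-alpha (gene18898, symbol RXRG) at 1.81, 0 and 22.2. All 4 had their highest level in liver, and HNF4-alpha, a factor of the hepatocyte, had no fragment in the salivary glands.

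From the same list, sensors of foreign compounds and bile acids are given here, chosen after their values were seen. The pregnane X receptor (NR1I2, gene2386), which induces CYP3A genes, was at 0.0359, 0 and 6.96, and the bile acid receptor (NR1H4, gene13560), which represses bile acid synthesis, at 0, 0.0430 and 4.99. Both were above an FPKM of 1 in liver alone. The aryl hydrocarbon receptor (AHR, gene11508), inducer of CYP1 genes, was at 1.98, 5.24 and 9.01, likewise highest in liver. CAR (NR1I3, gene19086), inducer of CYP2B genes, was at 0.166, 0 and 0.124, from 3, 0 and 5 fragments, too few for a ratio. A second bile acid receptor match (gene9807, symbol NR1H4) was at 0, 0 and 4.05. The aryl hydrocarbon receptor repressor (gene24382, symbol AHR) was highest in the small intestine, at 0.210, 0.0165 and 0.0108.

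**Figure D4:**
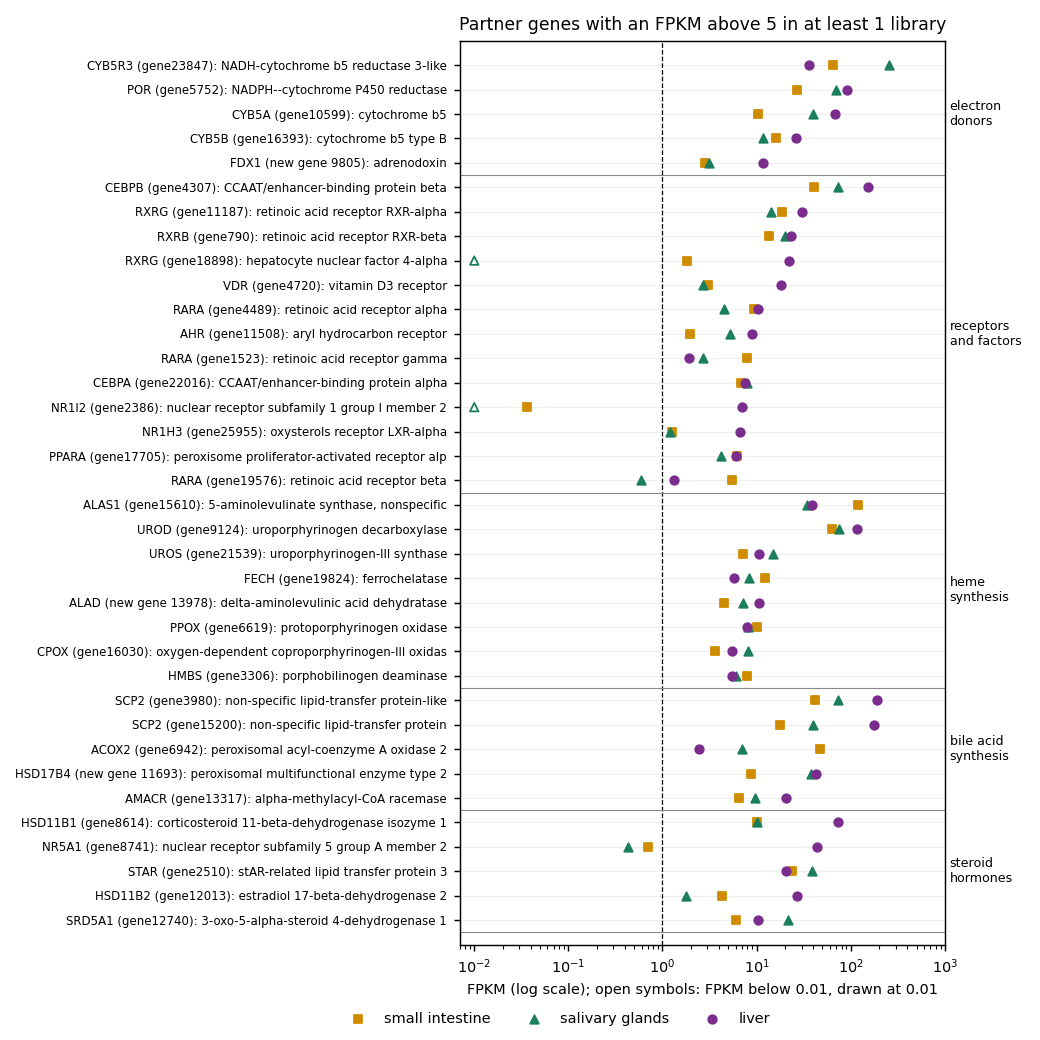
FPKM (log axis) of genes of the 5 partner lists above an FPKM of 5 in at least 1 library, given as symbol, identifier and NR product, with 1 symbol per library and open symbols for an FPKM below 0.01. POR, CYB5A, CEBPB and SCP2 have liver rightmost, whereas CYB5R3 is rightmost in the salivary glands and ALAS1 and ACOX2 in the small intestine.

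Genes of heme synthesis, which supplies the P450 cofactor, were mostly within 2-fold between libraries. Of 9 tested, 2 were at least 2-fold higher in liver than in the small intestine, close to the share of all genes (23.7%), and 1 was lower (24.5%). Against the salivary glands 0 were higher in liver (24.5%) and 0 lower (23.2%). The median log2 ratios were 0.00 and 0.06. ALAS1 (gene15610), the enzyme of the first step, was highest in the small intestine, at 118, 34.4 and 38.4, and liver stood 2.77-fold lower. UROD (gene9124) was at 62.6, 75.3 and 117, UROS (gene21539) at 7.19, 14.8 and 10.5, and ferrochelatase (FECH, gene19824) at 12.4, 8.36 and 5.77. These 3 had their highest level in 3 different libraries.

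Enzymes that complete bile acid synthesis beside the P450s were found as 8 genes. Of 7 tested, 5 were at least 2-fold higher in liver than in the small intestine (23.7% of all genes) and 2 lower (24.5%). Against the salivary glands 5 were higher in liver (24.5%) and 1 lower (23.2%). Both genes of SCP2, the thiolase that shortens the side chain, were highest in liver, gene3980 at 42.0, 73.5 and 188 and gene15200 at 17.9, 39.5 and 176. HSD17B4 (newGene_11693) was at 8.65, 37.8 and 42.9. ACOX2 (gene6942), the oxidase of the side chain, ran the other way at 46.7, 7.08 and 2.45, so that liver was 15.7-fold below the small intestine.

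Steroid hormone genes beside the P450s gave 9 genes, of which 3 of 6 tested were higher in liver than in each other library and 1 lower. Of all genes 23.7% and 24.5% were higher in liver than in the small intestine and salivary glands, and 24.5% and 23.2% lower. HSD11B1 (gene8614), which regenerates cortisol, was at 10.1, 10.001 and 74.02, and estradiol dehydrogenase HSD17B2 (gene12013, symbol HSD11B2) at 4.31, 1.76 and 26.6. NR5A2 (gene8741, symbol NR5A1), a receptor of the liver that controls bile acid P450s, was at 0.698, 0.425 and 43.7, and STARD3 (gene2510, symbol STAR) at 24.03, 39.04 and 20.7. Liver was highest for the first 3 and the salivary glands for STARD3. Of the 7 genes found for adrenal and gonad cells, 1, 1 and 3 were above an FPKM of 1 in the small intestine, salivary glands and liver. Those 3 in liver were CYP17A1 and the matches to NR5A2 and STARD3 given above. The others were at 9 fragments or fewer, with STAR (gene19888) at 9, 0 and 3, NR5A1 (gene6661) at 3, 0 and 0, MC2R (gene9402) at 0, 0 and 5, and CYP11A1 at 0.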

How the data were processed

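RNA was extracted from each tissue, and paired reads were obtained on an Illumina instrument. The authors aligned them with TopHat2, without strand, to an M. javanica genome whose build is not given in the sources used here, and assembled new genes with Cufflinks. The deposited count is a whole number of fragments per gene that the authors did not scale, and the methods name RSEM for FPKM without saying whether it also made the counts. The deposited FPKM relates these fragments to gene length and to the library's mapped fragments. The authors also gave a score equal to the unrounded count times 1 factor per library, and it shows that the count exceeds the unrounded value by over 0.5 in 31.8 to 33.0% of genes with a count above 0, by about 1 at most among P450 genes. Gene lengths were read as deposited. Annotation was made by the authors with BLASTX at an e-value of 1e-05, and genes were named by Swiss-Prot symbol or NR entry.

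Counts were scaled with TMM in edgeR 4.0.16 (R 4.3.3), fitted on all genes. Ratios carry exact 95% counting intervals (conditional binomial) and shares 95% Wilson intervals. These cover counting error only. With 1 library per tissue no test between tissues and no p-value was possible, and the threshold was a ratio of 2 at 10 fragments over a pair, with 3 counts for a count of 0. The authors' own test compares the reads of 2 libraries and was replaced by this fold rule. Ratios and intervals were computed in Python 3.11.15 (scipy 1.17.1, numpy 2.4.6, pandas 2.3.3), with plots by matplotlib 3.10.9. DESeq2 1.42.0 gave size factors for an alternative scaling. Scripts were tested on simulated data.

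P450 genes and lists were chosen with earlier results of these data known. Named by rule were P450 genes above an FPKM of 10, the 3 highest of each group, those above 1 and 2-fold higher outside liver, a list of well-known P450s, and the 4 highest of each partner list. Other P450 genes, adrenodoxin, AHR, NR1I2, NR1I3 and NR1H4 were named after their values were seen. P450 groups follow the symbol, and 3 genes (gene217, gene2750 and gene6858) fall in another group by NR entry. No sequence was printed, since none of the files read holds one for these genes, and the RefSeq gene table was not joined.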

Additional observations from a re-analysis of the deposited data

How the results depend on the processing

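No paired analysis was possible because each group holds 1 library, and for the same reason no library could be left out in turn. Each summary was recomputed under other thresholds, scalings and gene sets. A reversal could be scored only for the median log2 ratios, and none of these reversed. Of all recomputed summaries, 140 stayed within 1.5 times the reported count or within its interval, and 40 moved. Part of the 140 could not move. No gene was a member by NR entry alone, some groups held no new gene, and most groups were the same by NR name. The TPM sums were scored as moved without a limit. The numbers 140 and 40 are therefore no measure of how firm the results are. With an FPKM above 5 the small intestine held 8 P450 genes and the salivary glands 11. Summing genes of 1 symbol left 29 in liver above an FPKM of 1, with 23 higher and 4 lower in liver than in the small intestine and 20 higher than in the salivary glands. Leaving out the 25 genes under 1200 bases, a choice made after seeing the data, left 27 in liver above an FPKM of 1, with 24 and 22 higher in liver than in small intestine and salivary glands. Between salivary glands and small intestine, 12 were lower without a filter, 8 higher at a ratio of at least 4, and 9 higher with the interval past 2-fold. The P450 share in small intestine, salivary glands and liver was 0.0140, 0.0311 and 0.272% of summed FPKM, 0.0529, 0.0862 and 0.303% of counts without the 10 most abundant other genes, and 0.02800, 0.0628 and 0.235% without new genes. Without CYP27A1 (gene2961), also chosen after seeing the data, it was 0.0286% in small intestine and 0.142% in liver, and the bile acid sum was 2.39, 0.517 and 43.3. As TPM, the sums over P450 genes were 140.3, 311.3 and 2716. Without new genes the CYP3 sum was 0, 1.43 and 107, the group with CYP20A1 alone fell to 0 in each, and the liver sums were 26.1 for CYP1, 863 for CYP2 and 28.2 for CYP4. By NR name the small intestine sums were 8.67 for bile acid and 7.83 for vitamins A and D. Scaling by library size alone moved the log2 ratios of all genes by 0.24 for liver over small intestine, by -0.22 for liver over salivary glands and by 0.46 for salivary glands over small intestine. Under library size, DESeq2 size factors or upper quartile, 297 of the values for 103 ratios of 49 named genes kept their call, 7 passed the threshold anew, 3 lost it and 2 changed sign within 2-fold, CYP2B4 (gene16715) and gene217 for liver over salivary glands. Also chosen after seeing the data were unrounded counts and 1 count in place of 0, under which the counts of calls stayed within 1.5 times, though with unrounded counts CYP7A1 (gene10683) and CYP2B5 (gene16714) lost their calls for liver over small intestine and newGene_12722 gained one for salivary glands over small intestine. What limits these values is 1 library per tissue, a small intestine library with stomach markers, short gene models and paralogs.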
